A study of Mus musculus with 12 samples.

Results

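The 10 genes described here are 4 neighbouring apolipoprotein genes on mouse chromosome 7 (Apoe, Apoc1, Apoc2 and Apoc4) and 6 genes of lipid efflux and its control by the liver X receptors (LXR), namely Abca1, Abcg1, Nr1h3, Cd5l, Lpl and Mylip. They were taken by symbol from a table of 14098 genes, and all 10 are listed in it. The genes were chosen by their measured TPM in these same 12 libraries, set beside the condition labels and beside Camkk2 over or under 20 TPM. The levels are therefore given as a description, and no test below is independent evidence for the choice of genes. RNA was sequenced from bone marrow-derived macrophages (BMDM, cells grown out of mouse marrow in L929-conditioned medium) of WT mice and of Camkk2-/- mice, here also called KO. The mice were male and female C57Bl/6 animals of 8 to 10 weeks. BMDM of both genotypes were encapsulated in a 3D gel of collagen and hyaluronic acid and kept as a soft matrix, as a soft matrix with IL-4, or as a stiff matrix. The stiff gel, which also held more collagen, was crosslinked with UV light and a photoinitiator 24 h after encapsulation, and cells were collected 48 h later. Each of the 6 groups has 2 libraries, called replicates by the submitters. The paper describes them as 2 biological replicates per condition. Whether each library is a separate animal or culture is not stated, so p-values measure the spread between these libraries, which may not be that between animals. The titles of the 2 IL-4 libraries of each genotype carry the same soft gel number, and whether they share an origin is not stated. The knockout is carried by all cells of the animal, and the table does not show which exons of Camkk2 were deleted.

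The liver X receptors are nuclear receptors that sense oxysterols, pair with retinoid X receptors and switch on genes that move cholesterol out of macrophages. ABC transporters load cholesterol onto lipid-poor particles, and apolipoprotein E made by macrophages serves as an acceptor and as a ligand for lipoprotein receptors. The genes of apolipoproteins E and C lie side by side, and their expression in macrophages is known to be driven by shared distal enhancers that respond to LXR.

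The values are TPM, transcripts per 1000000 counted in a library, which are divided by gene length, so levels of different genes may be set side by side. Each value is a share of a fixed total, so differences between libraries are differences in share. The targeted gene has to be given first. Camkk2 in soft gels was 44.2 TPM in the WT replicate 1 library, 11.7 TPM in the WT replicate 2 library, 46.6 TPM in the KO replicate 1 library and 11.5 TPM in the KO replicate 2 library. With IL-4 it was 30.5 and 29.8 TPM in WT and 11.5 and 8.54 TPM in KO. In the stiff matrix it was 23.3 and 23.7 TPM in WT, and 37.7 and 10.0 TPM in the libraries labelled KO stiff 1 and 2. The libraries labelled WT soft 2, KO soft 1 and KO stiff 1 therefore go against their genotype labels. They were kept in their labelled groups, libraries are named by label throughout, and results that rest on these 3 are also given without them. Without them WT soft, KO soft and KO stiff hold 1 library each, which is assumed to vary like the other groups, and the remaining 9 libraries follow the Camkk2 split that was used to choose the genes, so these values show what rests on the 3 libraries and are no independent support. Over the 11194 genes tested, each at 1 TPM or more in 2 or more libraries, WT stiff 1 stood apart, with a root mean square difference of 0.688 on the log2 scale to its nearest library. WT stiff 2 was nearer to WT soft+IL-4 2 (0.188) than WT soft+IL-4 1 was to that library (0.336). Macrophage markers (Adgre1, Csf1r, Cd68, Itgam, Fcgr1, Mertk, Lyz2 and Cd14, all 8 present) summed to 23571 to 57980 TPM. Neutrophil markers (6 of 8 in the table) summed to 9.76 to 25.8 TPM, and B cell markers (5 of 5) to 0.657 to 3.38 TPM. Markers of T and NK cells (3 of 5) gave 0 to 1.03 TPM, and of mast cells and basophils (5 of 5) 0.326 to 1.68 TPM. Stromal cells (5 of 5) gave 0.183 to 0.809 TPM, erythroid cells (1 of 7) 0 to 0.466 TPM and adipocytes (1 of 5) 0 to 3.29 TPM. Lists with few genes in the table say little about those cells. Adipoq, the 1 adipocyte marker present, rose with IL-4 in WT (log2 fold change 1.74, adjusted p = 0.0337, limma) and KO (1.75, adjusted p = 0.0334), at 3.29 TPM or less. The dendritic cell list summed to 46.7 to 243 TPM, of which Clec10a, also made by IL-4-treated macrophages, gave 41.7 to 221 TPM. Depth is unknown, because TPM keeps no read counts.

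Apoe, the apolipoprotein that carries cholesterol away from macrophages, was among the most abundant transcripts, with a median of 3149 TPM over the 12 libraries, above the median of 99.8% of the listed genes. In soft gels WT cells held 8727 TPM in library 1 and 1362 TPM in library 2 by label, and KO cells 8891 and 1234 TPM. With IL-4 it was 4162 and 3757 TPM in WT and 909 and 468 TPM in KO. In stiff gels it was 3424 and 2873 TPM in WT, and 7767 and 1092 TPM in the libraries labelled KO stiff 1 and 2. Within the soft groups of WT and KO and within KO stiff, the 2 libraries lay 6.41-fold, 7.21-fold and 7.11-fold apart, whereas the pairs of WT soft+IL-4, WT stiff and KO soft+IL-4 lay 1.11-fold, 1.19-fold and 1.94-fold apart. In each of the 3 split groups the high library was the one with Camkk2 over 20 TPM. It was also the library numbered 1, so the replicate number and the Camkk2 level cannot be told apart within these groups. In the other 3 groups Apoe was likewise higher in library 1, by the smaller ratios given. The libraries numbered 1 listed 10.7 to 13.4% of genes at 0 and those numbered 2 listed 5.90 to 7.54%, and the part of this in the split was not tested. No comparison of labelled groups over all 12 libraries passed the test for Apoe. The log2 fold change on log2(TPM + 1) of WT soft+IL-4 against WT soft was 0.20 (SE 1.14, adjusted p = 0.937), and without the 3 libraries that go against their labels it was -1.14 (SE 0.38, adjusted p = 0.252). For KO soft+IL-4 against KO soft the values were -2.34 (SE 1.14, adjusted p = 0.254) and, without the 3 libraries, -0.92 (adjusted p = 0.349).

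**Figure D1:**
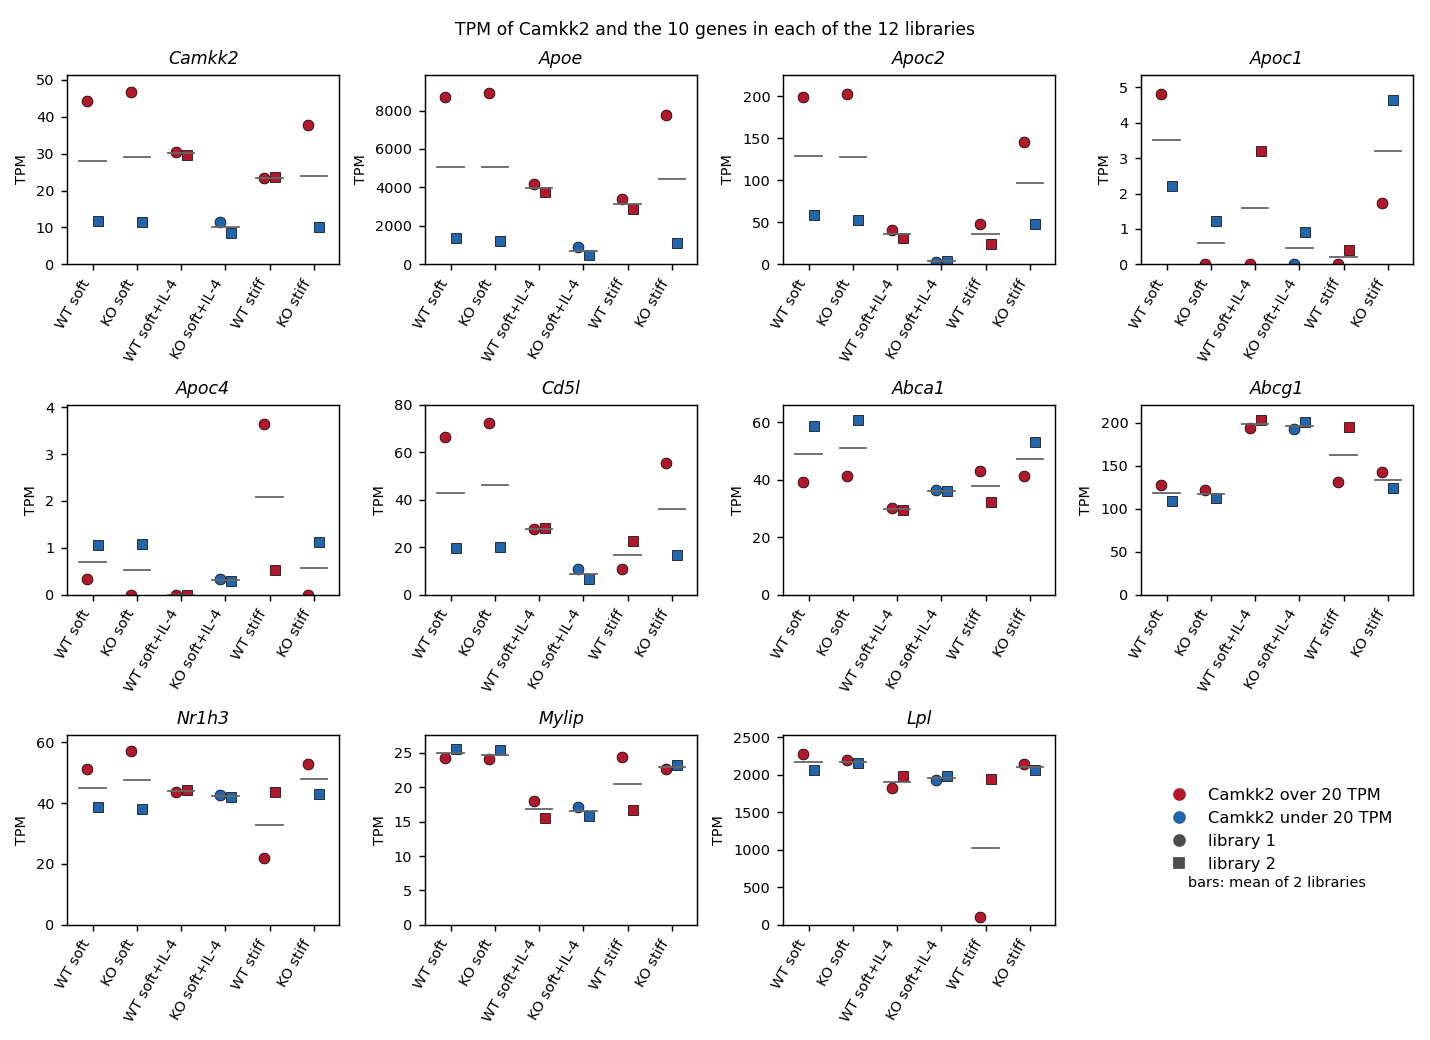
TPM of Camkk2 and of the 10 genes (vertical axes, from 0) in each of the 12 libraries, by labelled group. Points are single libraries, coloured by Camkk2 over or under 20 TPM, and bars are means of 2 libraries. Apoe ran from 468 to 8891 TPM and split within 3 groups as Camkk2 did, Abcg1 was 193 to 204 TPM in the 4 soft+IL-4 libraries, and Lpl dropped to 106 TPM in WT stiff 1 alone.

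The Apoe gene lies on the minus strand at chr7:19696109-19699188 (GRCm38). Its promoter window of 250 bases before to 50 after the RefSeq start site, at chr7:19699139-19699438 on the minus strand (RefSeq, GRCm38.p6), is shown with those of the other genes whose levels split as Apoe did (Apoc2, chr7:19677892-19678191, minus strand, and Cd5l, chr3:87357631-87357930, plus strand) and of Abca1, a classical LXR target (chr4:53159846-53160145, minus strand). LXR and its partner bind a direct repeat with 4 free bases between its parts, DR4 (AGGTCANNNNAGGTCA). Both strands were searched for it and for the single hexamer AGGTCA, which is part of it, and matches are in capitals. All 4 are written 5′ to 3′ on the strand of the gene.
Apoe: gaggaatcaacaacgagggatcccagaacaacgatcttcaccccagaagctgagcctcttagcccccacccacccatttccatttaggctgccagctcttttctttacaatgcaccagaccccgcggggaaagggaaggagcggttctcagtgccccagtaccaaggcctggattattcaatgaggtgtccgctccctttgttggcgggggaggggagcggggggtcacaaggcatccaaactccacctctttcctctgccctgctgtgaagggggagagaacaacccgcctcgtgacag
Apoc2: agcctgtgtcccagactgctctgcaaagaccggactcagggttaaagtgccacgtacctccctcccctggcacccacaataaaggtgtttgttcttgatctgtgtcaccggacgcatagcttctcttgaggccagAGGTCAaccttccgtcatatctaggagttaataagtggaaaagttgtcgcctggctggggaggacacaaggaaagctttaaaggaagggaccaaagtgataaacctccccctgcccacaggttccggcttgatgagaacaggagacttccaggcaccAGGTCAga
Cd5l: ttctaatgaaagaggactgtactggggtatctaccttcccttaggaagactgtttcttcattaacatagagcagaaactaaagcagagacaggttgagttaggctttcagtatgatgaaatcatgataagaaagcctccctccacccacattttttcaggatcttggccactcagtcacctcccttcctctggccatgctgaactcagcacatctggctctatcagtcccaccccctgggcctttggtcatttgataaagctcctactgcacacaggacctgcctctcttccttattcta
Abca1: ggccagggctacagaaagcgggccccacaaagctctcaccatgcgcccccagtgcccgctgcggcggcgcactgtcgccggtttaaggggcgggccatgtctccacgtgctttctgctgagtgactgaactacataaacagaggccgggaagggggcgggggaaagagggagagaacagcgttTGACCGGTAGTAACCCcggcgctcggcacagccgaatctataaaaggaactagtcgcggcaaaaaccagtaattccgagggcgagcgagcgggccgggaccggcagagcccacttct
Neither motif was found in the Apoe or Cd5l window. The Apoc2 window holds 2 hexamers, at -115 to -110 and at 42 to 47, counted from 0 at the first transcribed base, and its upstream end overlaps the 3′ end of Apoc4. The Abca1 window holds 1 match to DR4 with 3 mismatches, on the strand opposite to the gene, at -67 to -52. Matches that loose are common, since 21.9% of 32851 promoter windows of this length hold one, against 3.02% at 2 mismatches and 0.0152% with none. This share does not show whether LXR binds the Abca1 match or any other, and binding was not tested. The hexamer alone is in 16.3% of windows. RefSeq windows were matched for 7 of the 10 genes, and the distal enhancers were not looked at.

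Apoc2, the cofactor that activates lipoprotein lipase, showed the largest fall with IL-4 among the 10 genes. In soft gels it was 199 TPM (library 1) and 59.3 TPM (library 2) under the WT label, and 203 and 52.6 TPM under the KO label. With IL-4 it was 40.7 and 31.5 TPM in WT and 3.07 and 3.84 TPM in KO. In stiff gels it was 47.6 and 24.3 TPM in WT and 146 and 48.5 TPM in KO. Every soft+IL-4 library was below every soft library of either genotype, and the KO soft+IL-4 libraries were the lowest of all 12. Mean Apoc2 was 37.0-fold lower in KO soft+IL-4 than in KO soft, a log2 fold change of -4.56 (95% interval -6.24 to -2.88, SE 0.75, adjusted p = 0.00488). Without the 3 libraries, against KO soft 2 alone and with the spread taken from the other groups, the change was -3.59 (adjusted p = 0.0176). In WT the mean was 3.58-fold lower with IL-4, which did not pass the test (-1.58, SE 0.75, adjusted p = 0.224, and -2.44 with adjusted p = 0.0603 against WT soft 1 alone, without the 3 libraries). Averaged over the genotypes, the fall with IL-4 was -3.07 (SE 0.53, adjusted p = 0.00293), and -3.02 (adjusted p = 0.0051) without the 3 libraries. The difference between the genotypes in this response was -2.98 (SE 1.05, unadjusted p = 0.0191, adjusted p = 1). It rests in part on the libraries that go against their labels. Without the 3 libraries the changes lay closer together, at -3.59 in KO and -2.44 in WT. The difference also holds the genotype comparison with IL-4, which is the Camkk2 split that chose the genes, so nothing is read from it.

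Apoc1, an inhibitor of lipid transfer and lipoprotein uptake, and Apoc4, a minor apolipoprotein, were at the edge of detection. Apoc1 ranged from 0 to 4.82 TPM and is listed at 0 in 4 libraries. It was 4.82 and 2.20 TPM in WT soft, 0 and 1.23 in KO soft, with IL-4 0 and 3.20 in WT and 0 and 0.903 in KO, 0 and 0.409 in WT stiff, and 1.73 and 4.65 TPM in KO stiff. These values follow neither Apoe nor Apoc2, and no comparison of Apoc1 passed the test. Apoc4 ranged from 0 to 3.64 TPM, reached 1 TPM in 4 libraries and is also listed at 0 in 4, among them both WT soft+IL-4 libraries. Its highest value was in WT stiff 1, and no comparison passed. Apoc2 and Apoc4 lie 141 bases apart on the same strand, and the annotated gene Gm44805 overlaps both on that strand, so reads of the 3 cannot be told apart by strand, and the values of Apoc2 and Apoc4 are uncertain to that extent.

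The 4 genes span 27.6 kb on the minus strand, in the order Apoe, Apoc1 (chr7:19689481-19692660), Apoc4 (chr7:19678083-19681479) and Apoc2 (chr7:19671579-19677941). Apoe ends 3.45 kb before Apoc1, and 8.00 kb separate Apoc1 from Apoc4. The genes that flank the cluster differed less between the libraries of a split group than Apoe and Apoc2 did. Tomm40, a mitochondrial import gene whose 3′ end lies 2.12 kb upstream of the Apoe start, was 47.1 to 57.5 TPM in the 4 soft libraries, and Clptm1, 6.54 kb beyond Apoc2, was 55.5 to 66.9 TPM. Within the split groups and between the genotypes with IL-4, the library or mean with Camkk2 over 20 TPM was 0.933 to 1.22 times the other for Tomm40, 0.973 to 1.60 times for Nectin2, 1.09 to 1.23 times for Clptm1, 0.894 to 1.16 times for Relb, 0.772 to 0.978 times for Bcl3 and 0.804 to 1.12 times for Gemin7, against 5.75 to 7.21 times for Apoe and 3.01 to 10.4 times for Apoc2. Clptm1 was thus higher, and Bcl3 lower, on the side with Camkk2 over 20 TPM in all 4, by small ratios. Of the 10 neighbours listed, 9 are in the table and 6 were tested, and none was called in any of the 11 comparisons.

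**Figure D2:**
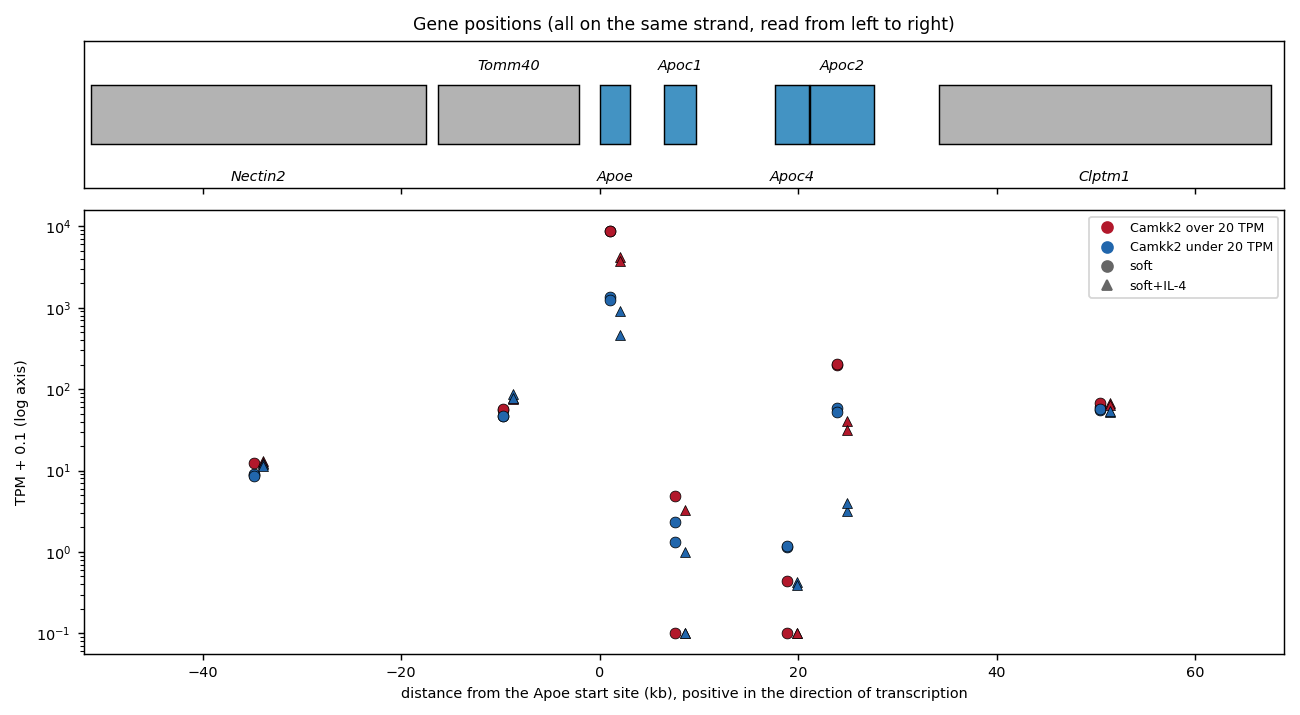
Positions of the apolipoprotein genes (blue) and their neighbours (grey), in kb from the Apoe start site, above the TPM + 0.1 (log axis) of each gene in the 8 soft (circles) and soft+IL-4 (triangles) libraries. Points are single libraries, placed at the gene's centre with the conditions set apart by a small shift. Apoe and Apoc2 separate by the Camkk2 level (colour) in both conditions, while Tomm40, Nectin2 (Pvrl2 in the table) and Clptm1 lie closer together.

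Cd5l, a secreted protein of tissue macrophages that is induced by LXR and binds fatty acid synthase, split as Apoe did. In soft gels the WT label held 66.3 and 19.5 TPM, and the KO label 72.3 and 19.9 TPM. With IL-4 it was 27.7 and 27.9 TPM in WT and 10.9 and 6.36 TPM in KO. In stiff gels it was 10.7 and 22.6 TPM in WT and 55.5 and 16.7 TPM in KO. The high library of each split group was again the one with Camkk2 over 20 TPM, but WT stiff 1, with Camkk2 over 20 TPM, was as low as KO soft+IL-4 1. No comparison over the 12 libraries was called. For KO soft+IL-4 against KO soft, mean Cd5l was 5.33-fold lower (log2 fold change -2.06, SE 0.75, adjusted p = 0.125), and without the 3 libraries the change was -1.16 (adjusted p = 0.324). For WT soft+IL-4 against WT soft it was -0.37 (SE 0.75, adjusted p = 0.81), and -1.23 (adjusted p = 0.295) without them.

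Abca1 and Abcg1, the transporters that pass cholesterol to lipid-poor apolipoproteins and to HDL particles, moved in opposite directions with IL-4. Abca1 (chr4:53030787-53159895) was 39.4 and 58.7 TPM in soft gels with the WT label and 41.2 and 60.9 TPM with the KO label, and with IL-4 it was 30.1 and 29.5 TPM in WT and 36.3 and 36.1 TPM in KO. In stiff gels it was 43.2 and 32.2 TPM in WT and 41.3 and 53.1 TPM in KO. The 4 soft+IL-4 libraries were all below the 4 soft libraries. Averaged over the genotypes, Abca1 changed with IL-4 by -0.56 on log2(TPM + 1), with an SE of 0.17 and an adjusted p of 0.0368, less in size than the change of 1 that a call required, and without the 3 libraries the change was -0.56 with an adjusted p of 0.0659. In neither genotype alone did the fall pass (-0.67, adjusted p = 0.105 in WT, and -0.46, adjusted p = 0.28 in KO). In the 3 split groups the pattern of Abca1 ran against that of Apoe, since the library with Camkk2 under 20 TPM held 1.28 to 1.49 times as much Abca1.

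Abcg1 (chr17:31057675-31117988) was 127 and 109 TPM in WT soft, 122 and 112 TPM in KO soft, and with IL-4 it was 194 and 204 TPM in WT and 193 and 201 TPM in KO. It was 131 and 195 TPM in WT stiff and 143 and 125 TPM in KO stiff. Mean Abcg1 was 1.69-fold higher with IL-4 in WT (log2 fold change 0.75, SE 0.17, adjusted p = 0.0203) and 1.68-fold higher in KO (0.75, SE 0.17, adjusted p = 0.0214). The rise averaged over the genotypes was 0.75 (SE 0.12, adjusted p = 0.00182), below the change of 1 for a call, and without the 3 libraries it was 0.72 with an adjusted p of 0.0581. The interaction of genotype and IL-4 was -0.00 (95% interval -0.54 to 0.53), and the library pairs of soft and soft+IL-4 differed by at most 1.17-fold.

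Nr1h3, which encodes LXR alpha itself, ran from 21.8 to 57.1 TPM over the 12 libraries, a 2.62-fold range. It was 51.1 and 38.9 TPM in WT soft, 57.1 and 38.0 TPM in KO soft, and with IL-4 it was 43.6 and 44.2 TPM in WT and 42.7 and 42.1 TPM in KO. In stiff gels it was 21.8 and 43.5 TPM in WT and 52.9 and 43.0 TPM in KO. The log2 fold change with IL-4 was -0.02 in WT (95% interval -0.68 to 0.64) and -0.13 in KO (-0.79 to 0.53). All libraries other than WT stiff 1 held 38.0 TPM or more. Mylip, an LXR target that encodes a ubiquitin ligase, was 24.3 and 25.6 TPM in WT soft, 24.1 and 25.4 TPM in KO soft, and with IL-4 it was 18.0 and 15.6 TPM in WT and 17.1 and 15.9 TPM in KO. In stiff gels it was 24.4 and 16.7 TPM in WT and 22.6 and 23.2 TPM in KO. Averaged over the genotypes the log2 fold change of Mylip with IL-4 was -0.55 (SE 0.11, adjusted p = 0.00685), short of a call, with -0.55 (adjusted p = 0.0583) in WT, -0.56 (adjusted p = 0.057) in KO, and an adjusted p of 0.123 for the average without the 3 libraries.

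Lpl, the secreted lipase that hydrolyses triglycerides of lipoproteins and needs apolipoprotein C2, was 1829 to 2279 TPM in 11 libraries and 106 TPM in WT stiff 1. The other WT stiff library held 1947 TPM, 18.3 times as much. The comparison of WT stiff with WT soft (log2 fold change -2.25, SE 0.97, adjusted p = 0.199) rests on that library, since the change was -0.16 without WT stiff 1. In the 11 other libraries the highest Lpl value was 1.25 times the lowest. WT stiff 1 was also the lowest of the 12 libraries in Nr1h3 and the highest in Apoc4, while its Apoe and Camkk2 lay near those of WT stiff 2.

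In the comparison of soft+IL-4 with soft, which asks how an M2-type cytokine changes these genes, Apoc2 was the only member called (adjusted p under 0.05 and a log2 fold change of at least 1 in size). In WT, 0 of 10 members were called, against 3.76% of all 11194 genes tested. An unadjusted p under 0.05 (limma) was reached by 3 of the 10 members and by 2840 of all genes tested. In KO 1 of 10 was called (3.65% of all genes), and for the average of the genotypes again 1 of 10 (4.35%). At any size of change an adjusted p under 0.05 was reached by Abcg1 in WT, 1 of 10 (10.7% of all genes), by Abcg1 and Apoc2 in KO, 2 of 10 (10.3%), and by Apoc2, Abcg1, Abca1 and Mylip, 4 of 10, for the average of the genotypes, where 22.9% of all genes reached it. The libraries of soft+IL-4 and soft did not overlap for 6 members in WT and 7 in KO, against 61.3% and 60.4% of all genes. The median log2 fold change of the members was -0.46 in WT and -0.30 in KO, beside -0.05 and -0.05 for all genes tested. Summed macrophage markers, most of it from Lyz2, moved with IL-4 as well, from 51475 to 57980 TPM in the 4 soft libraries to 23571 to 25557 TPM with IL-4, and their part in these values was not tested.

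In the comparison of stiff with soft gels, none of the 10 genes was called. In WT 0 of 10 members were called (3.97% of all genes, limma), and 3 had an unadjusted p under 0.05, beside 2671 of all 11194 genes. The WT libraries did not overlap for 4 members (42.8% of all genes). Summed macrophage markers were 51475 and 54862 TPM in WT soft, 23619 and 24708 TPM in WT stiff and 45977 and 48589 TPM in KO stiff. The dendritic cell list summed to 46.7 and 61.6 TPM in WT soft, 243 and 103 TPM in WT stiff and 63.5 and 66.4 TPM in KO stiff, and the part of these markers in the values of WT stiff was not tested. Apoc2 was 3.6-fold lower in mean in WT stiff (log2 fold change -1.65, SE 0.75, adjusted p = 0.218), and -2.51 (adjusted p = 0.0526) without the 3 libraries. Abcg1 was 0.44 higher (SE 0.17, adjusted p = 0.144). Apoe changed by -0.14 (SE 1.14, adjusted p = 0.96), and by -1.48 (adjusted p = 0.161) without the 3 libraries. In KO 0 of 10 members were called (0.0447% of all genes), and none had an unadjusted p under 0.05, beside 295 of all genes. The KO libraries did not overlap for 4 members (32.3% of all genes). Between WT stiff and WT soft+IL-4 0 of 10 members were called, as was 0% of all genes. There, 1 member and 557 of all genes had an unadjusted p under 0.05, and 5 members did not overlap (29.3% of all genes).

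**Figure D3:**
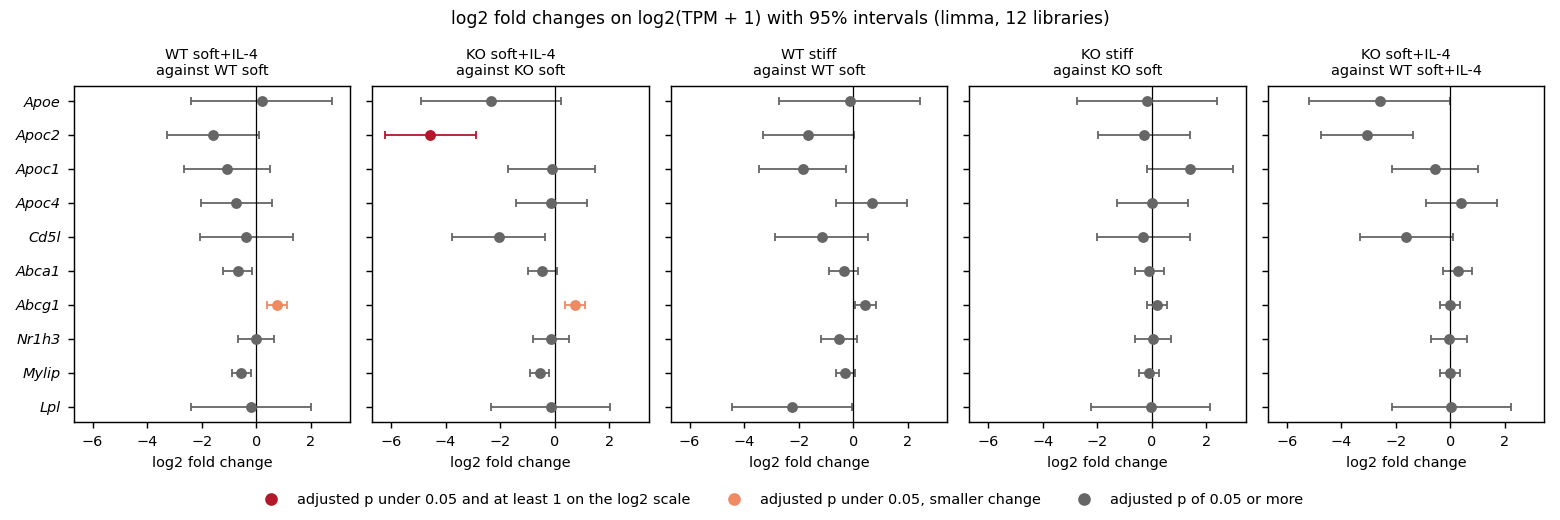
Log2 fold changes of the 10 genes on log2(TPM + 1), with 95% intervals from limma, in 5 comparisons of labelled groups. Apoc2 in KO soft+IL-4 (red, -4.56) passed both limits, Abcg1 (orange, 0.75 in both genotypes) passed the limit on p alone, and the intervals of Apoe and Lpl are among the widest.

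Between the genotypes as labelled, none of the 10 genes was called. In soft gels 0 of 10 were called (0% of all genes), and none had an unadjusted p under 0.05, beside 130 of all 11194 genes. The soft libraries did not overlap for 1 member, Apoc1 (24.7% of all genes). The log2 fold change of Apoe in KO soft against WT soft was -0.06 (SE 1.14), and in the comparison of KO soft 2 with WT soft 1, which is what remains without the 3 libraries, it was -2.82, beside -1.90 for Apoc2 and -1.69 for Cd5l. That is 1 library against 1, split by Camkk2, and is given with no test. In stiff gels 0 of 10 were called (1.98% of all genes), and 3 members did not overlap (39.1%). An unadjusted p under 0.05 was reached by 2 members and by 2034 of all genes in stiff gels. Apoe changed by -0.11 there, and by -1.52 without the 3 libraries, which again is the split by Camkk2.

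With IL-4 the labels and the Camkk2 level agree in all 4 libraries, so this genotype comparison is also the split by Camkk2 that was used to choose the genes, and nothing is read from its test. Mean Apoc2 was 10.4-fold, Apoe 5.75-fold and Cd5l 3.21-fold lower in KO soft+IL-4 than in WT soft+IL-4, with log2 fold changes of -3.05, -2.60 and -1.62. In the fit of 12 libraries, whose spread includes the split soft and stiff pairs, 0 of 10 members and 0% of all genes were called, 2 members and 233 genes had an unadjusted p under 0.05, and the libraries did not overlap for 6 members (38.9% of all genes). Abca1 was 1.22-fold higher in KO, and the 95% intervals in the fit of 12 libraries were -0.39 to 0.36 for Abcg1 and -0.38 to 0.33 for Mylip. Neither interaction, of genotype with stiffness (0.67% of all genes called) or with IL-4 (0%), called any of the 10 genes. In each, 1 member had an unadjusted p under 0.05, beside 1219 of all genes for stiffness and 165 for IL-4.

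Set beside the measured Camkk2 level, with no test because this level chose the genes, Apoe followed it most closely. The 7 libraries with Camkk2 over 20 TPM held 2873 to 8891 TPM of Apoe, and the 5 under 20 TPM held 468 to 1362 TPM. Apoe was the only member for which all libraries over 20 TPM lay above all those under it, as did 44 of 11194 genes (0.393%), and no member lay the other way round (0.768% of genes). The libraries next to the limit were WT stiff 1, with 23.3 TPM of Camkk2 and 3424 TPM of Apoe, and WT soft 2, with 11.7 and 1362 TPM. In the 6 libraries of the 3 split groups, Apoe, Apoc2, Cd5l and Nr1h3 were higher in all 3 libraries over 20 TPM (7.56% of genes), and Apoc4 and Abca1 were lower in all 3 (15.7%). The ratio of the library or mean over 20 TPM to the one under it, in these 3 groups and between the genotypes with IL-4, was 3.01 to 4.07 for Camkk2 itself and 3.21 to 3.63 for Cd5l. It was 1.03 to 1.5 for Nr1h3, 0.671 to 0.823 for Abca1, 1.01 to 1.17 for Abcg1, 0.947 to 1.02 for Mylip and 0.976 to 1.10 for Lpl. Other lipid genes, looked at after values were seen, lay on both sides. The fatty acid binding protein genes Fabp4 (1.78 to 1.97) and Fabp5 (1.67 to 1.76) and Pparg (1.16 to 1.34) were above 1 in all 4, and Cd36 (0.715 to 0.791), Mertk (0.606 to 0.829), Pltp (0.838 to 0.951), Smpdl3a (0.845 to 0.984) and Lipa (0.936 to 0.991) were below 1 in all 4.

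**Figure D4:**
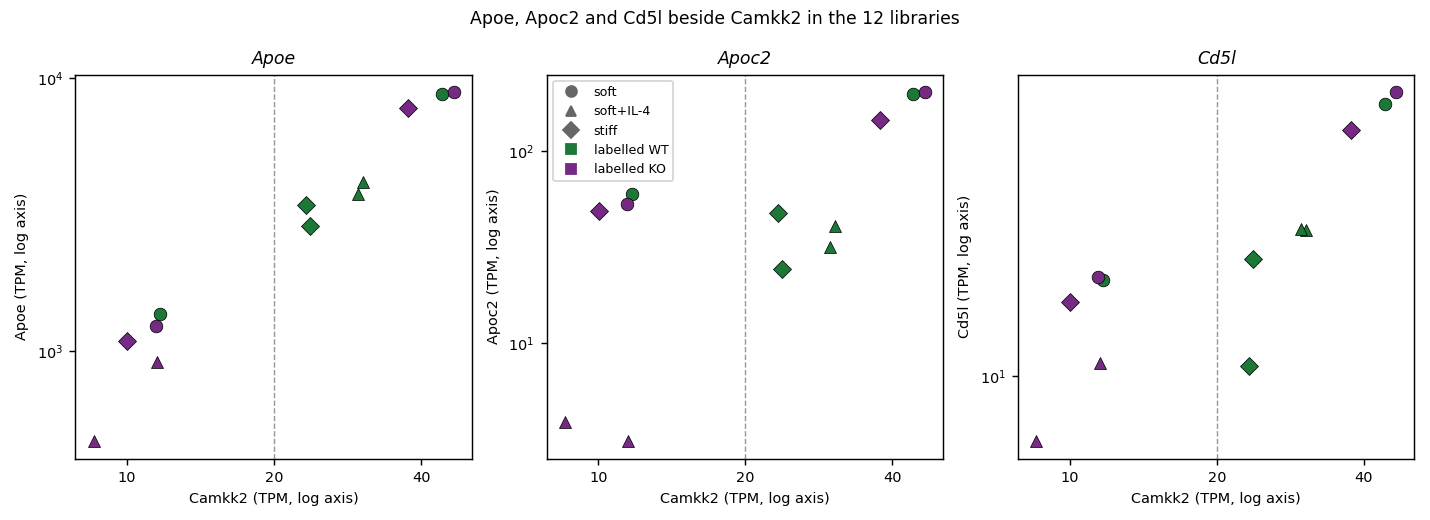
TPM of Apoe, Apoc2 and Cd5l (vertical, log axes) against TPM of Camkk2 (horizontal, log axis) in the 12 libraries, 1 point each, with colour for the labelled genotype, shape for the condition and a dashed line at 20 TPM of Camkk2. Apoe rises along the whole range from 468 to 8891 TPM, while Apoc2 and Cd5l overlap across the dashed line.

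Of all genes tested, the 5 whose log2(TPM + 1) was most like that of Apoe over the 12 libraries, by Pearson's r, were Camkk2 (0.981), Fam43a (0.939), Tmem180 (0.936), Rps3a1 (0.915) and Sel1l3 (0.909). For Cd5l they were Gpr137b-ps (0.963), Pyhin1 (0.951), Mnda (0.948), Anxa9 (0.947) and B4galt4 (0.944). For Abca1 they were Slc39a4 (0.986), Cxcr4 (0.986), Itgam (0.982), C1qa (0.98) and Agap1 (0.974). For Lpl they included Lipa (0.994), Prkcb (0.993), G6pdx (0.99) and Plekho2 (0.99), values that rest on WT stiff 1, as the rank correlations were 0.322 to 0.79. Among the members, r was 0.881 between Apoe and Cd5l, 0.801 between Apoe and Apoc2 and 0.848 between Apoc2 and Cd5l, but -0.28 between Apoe and Abca1 and -0.17 between Apoe and Abcg1. These values describe 12 libraries that share groups and conditions. The members were chosen by their levels beside Camkk2, so the rank of Camkk2 beside Apoe is not a result independent of that choice.

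The wider pathway was read from lists that do not include the members. The lists were chosen with earlier results of these data known, so their shares of called genes are not independent of that choice. Of the LXR partners and cofactors (11 of 12 in the table), 10 were tested. With IL-4, 1 was called higher and 0 lower in WT (3.76% of all genes were called), and none in KO (3.65%). This was Pparg, a lipid-sensing nuclear receptor, at 45.6 to 60.9 TPM in soft and 91.4 to 112 TPM in soft+IL-4 libraries (log2 fold change 1.06, adjusted p = 0.0418 in WT, and 0.85, adjusted p = 0.364 without the 3 libraries), and the call held in 2 of 10 refits. Nr1h2, which encodes LXR beta, was 85.1 to 111 TPM in all 12 libraries and was never called. Of the other LXR targets (11 of 13 tested), 1 rose and 3 fell with IL-4 in WT (3.76% of all genes were called) and 1 rose and 2 fell in KO (3.65%). Without the 3 libraries all 4 calls in WT were lost, with adjusted p of 0.0607 for Scd2, 0.106 for Abca9, 0.194 for Smpdl3a and 0.27 for Mertk, and in KO the call of Smpdl3a was lost (0.14). Smpdl3a, a phosphodiesterase, went from 286 to 338 TPM in soft to 134 to 140 TPM with IL-4 (average of the genotypes -1.18, adjusted p = 0.000647, and 0.0361 without the 3 libraries). Abca9, another ABC transporter, fell by 1.27 (adjusted p = 0.00104, and 0.01 without them), while the desaturase gene Scd2 rose by 1.17 (adjusted p = 2.05e-05, and 0.00849 without them). Mertk, a receptor for apoptotic cells that is also in the macrophage list, passed in WT alone (-1.08, adjusted p = 0.0469). Whether Mertk or Pparg differed between the genotypes was not shown, as no listed gene passed in the interaction with IL-4.

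Of the genes for cholesterol efflux, transport and storage (13 of 15 tested) none was called with IL-4, and 1 fell in WT stiff, where 3.97% of all genes were called. This was Cyp27a1, a sterol hydroxylase, at 88.9 ± 8.97 TPM in WT soft and 42.3 ± 10.9 TPM in WT stiff (SD, n = 2 each, -1.07, adjusted p = 0.00426, and 0.133 without the 3 libraries), and it did not pass without WT stiff 1 either. Among other LXR targets Abca9 (-1.13, adjusted p = 0.0223) fell and Arl4c (1.10, adjusted p = 0.0362), a small GTPase, rose in WT stiff, and without the 3 libraries their adjusted p were 0.149 and 0.214. The change of Arl4c ran from 0.58 to 1.61 over 10 refits and passed in 3 of them, and it did not pass without WT stiff 1. Of the genes for lipoprotein uptake and lipolysis, 13 of 18 were tested and 1 was called, the scavenger receptor gene Cd36. This was with IL-4 in KO (3.65% of all genes were called) and for the average of the genotypes (4.35%). Cd36 went from 402 to 556 TPM in soft to 814 to 1158 TPM with IL-4 (average 1.07, adjusted p = 0.00889, limma). The call of the average held in 11 of 14 refits, not in that without the 3 libraries (1.05). In KO the change was 1.23 (adjusted p = 0.0426), a call that held in 3 of 10 refits. In WT it was 0.91 (adjusted p = 0.11) and was not called. None of the 19 sterol synthesis genes, all tested, was called in any of the 11 comparisons.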

How the data were processed

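RNA of BMDM was sequenced as poly-A, strand-specific libraries. The authors deposited 1 table of TPM values of 14098 genes, each library scaled to 1000000. The submitters' processing notes name Trim Galore 0.6.7, Salmon 1.4.0 and mm10, while the paper's methods name snakePipes, STAR, featureCounts and DESeq, so the route to the TPM values is not settled. The annotation and the choice of genes are not given in the sources used here. TPM keeps no depth, so no counting error can be given.

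Groups came from the labels, which the column names repeat. The 11194 genes that reached 1 TPM in 2 or more of 12 libraries were fitted as log2(TPM + 1) by limma (version 3.58.1, R 4.3.3, lmFit, contrasts.fit and eBayes with trend), with 1 mean for each of 6 groups and no covariates, which understates changes of low genes. Tests were two-sided, with Benjamini-Hochberg adjustment over all genes in each of 11 comparisons. A gene was called at adjusted p under 0.05 with a log2 fold change of 1 or more in size. The code was tested on simulated data. The members and lists were chosen with earlier results of these data known. Named are all members, Camkk2, up to 3 called genes per list and comparison, and the 5 genes most like Apoe, Abca1, Cd5l and Lpl (1 of those for Lpl is not reported here), beside neighbouring genes and Fabp4, Fabp5, Nr1h2, Pltp and Mertk, which were added after their values were seen. Positions came from GENCODE vM21 (GRCm38). The 8 alternatives were a pseudocount of 0.1, no filter, median-of-ratios scaling, the replicate number as a block, a log2 fold change of 2 or more in size, only the libraries compared, each library left out in turn, and the 3 libraries that go against their labels left out together.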

Additional observations from a re-analysis of the deposited data

How the results depend on the processing

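The calls of Apoc2 kept their direction and side of the threshold in all 26 refits, and 128 of 133 counts of called members did not move. Leaving out 1 library at a time moved counts of called members only without WT stiff 2. This concerned Lpl in WT stiff against WT soft, and Apoc4 and Lpl in WT stiff against WT soft+IL-4. It also concerned Lpl and Nr1h3, both in KO stiff against WT stiff and in the interaction of genotype with stiffness. In these refits WT stiff 1 stands alone and is assumed to vary like the other groups, so nothing is read from those calls. With only the 4 libraries compared, KO soft+IL-4 against WT soft+IL-4 called Apoc2, Apoe and Cd5l, against 0 members with all 12. That fit also called genes outside the members, among them Ifi202b, Gbp2b, Ifi44 and Camkk2. This comparison is the Camkk2 split that chose the genes and nothing is read from it. Counts over all genes moved more, from 444 to 0 with only the libraries compared and to 131 without the 3 libraries that go against their labels in WT stiff against WT soft, from 222 to 0 and 20 in KO stiff against WT stiff, and from 421 to 106 and from 409 to 181 without those 3 for IL-4 in WT and KO. At a log2 fold change of 2 or more in size the IL-4 comparisons called 84 to 96 genes and WT stiff 107. Libraries that share a number deviated together, at a correlation over 0.1, in 3 of 15 pairs of groups (-0.05 to 0.31), namely among WT soft, KO soft and KO stiff, where the number coincides with the Camkk2 level, so the numbers were not taken to pair all groups. With the replicate block, the same 1 member was called with IL-4 in KO (Apoc2, -4.56, adjusted p = 0.000903), and no count of called members changed. Median-of-ratios scaling moved the median of all genes by at most 0.05. With 2 libraries a group and unknown depth, values under about 5 TPM, as for Apoc1 and Apoc4, limit every statement on those genes.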
